A study of Homo sapiens with 15 samples.

Results

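The genes described here are 51 genes that drive or mark the passage through G2 and mitosis. They were taken as named members of 9 subgroups: cyclins with CDK1 and its CDC25 phosphatases (6 genes), kinetochore proteins (9), kinesins (9, CENPE included), the spindle checkpoint (4), the chromosomal passenger complex (4), other mitotic kinases (5), mitotic exit and ubiquitination (4), spindle assembly and cytokinesis (8), and the transcription factor FOXM1 with the proliferation marker MKI67 (2). Each gene is represented by the probe set that names it alone and has the highest mean over the 15 arrays. All 51 were found among the 19775 genes tested, with no filter on low values; SKA1 was the only one of them whose mean level lay below the median of all genes.

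The study measured RNA on Affymetrix HG-U133 Plus 2.0 arrays in 2 related cell lines. CAL51 is an established triple-negative human breast cancer line, and CALDOX was selected from it by long culture with doxorubicin at 0.4 µM. Doxorubicin is an anthracycline that traps topoisomerase II on DNA and breaks the strands. There were 5 groups of 3 independent cultures each: CAL51 without drug, the same line given 0.4 µM doxorubicin for 24 h or for 48 h, CALDOX labelled as untreated, and CALDOX kept for 3 passages without drug and then given 4 µM doxorubicin for 24 h. CALDOX is a single derived line, so a difference between the lines is a difference from this line, and the 2 lines were treated at different doses. The labels do not say whether the untreated CALDOX cultures were also kept without drug.

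Entry into mitosis depends on CDK1 bound to cyclin B, which CDC25 phosphatases switch on. The kinetochore, built on centromeric chromatin, then attaches chromosomes to spindle microtubules, kinesin motors move microtubules and chromosomes, and the spindle checkpoint holds back the ubiquitin ligase APC/C until every chromosome is attached. Most of these genes are transcribed mainly in G2 and mitosis. In resting cells, and after p53 induces the CDK inhibitor p21, the DREAM complex represses many of them, and in cycling cells the MYB-MuvB complex and FOXM1 activate them. DREAM and MYB-MuvB share a core that contacts a short promoter element called the cell cycle genes homology region, or CHR, often placed near a CCAAT box.

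Values are RMA values on the log2 scale, so a difference of 1 is a doubling. Between arrays of a group the correlation over all genes was 0.9929 to 0.9978, and between groups it was 0.9789 to 0.9958. The interquartile range of an array ran from 2.55 to 2.77, with both ends in CAL51 at 24 h (replicates 2 and 3). Of the 5 epithelial markers, EPCAM, KRT8 and KRT18 were bright on every array (EPCAM from 11.75 to 12.40). The list moved with the groups: all 5 rose at 48 h in CAL51 (median 0.73, KRT19 by 2.09), and in untreated CALDOX 3 were lower than in CAL51 (CDH1 at -1.35) and 2 higher (KRT19 by 4.76). Of 15 markers of blood, fibroblast and endothelial cells, PDGFRB was the only one called in any treated group against its untreated line, at 48 h in CAL51 (0.41 higher), and between the untreated lines PDGFRB (-1.26) and COL3A1 (-0.57) were lower in CALDOX. The part of these shifts in the results was not tested. The arrays measure bulk RNA, in which fewer cells in G2 or mitosis and less RNA per such cell cannot be told apart.

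Promoters are shown first, and a link between their letters and the changes in RNA was not tested. RefSeq (GRCh38.p14) supplied a promoter for 45 of the 51 genes, reaching from 250 bases before the start to 50 after it (300 bases). The sequences below are the 250 bases before the start, 5′ to 3′ on the gene's strand, of the most reduced cyclin, kinetochore and kinesin gene at 48 h and of the least reduced of all 51. Capitals mark matches, on either strand, to the CHR letters TTTGAA or TTCGAA, to the CCAAT box, and to the E2F letters TTTCCCGC, TTTGGCGC, TTTCGCGC, TTTGCCGC or TTTCCCGG.
CCNA2 (chr4:121823884-121824133, minus strand): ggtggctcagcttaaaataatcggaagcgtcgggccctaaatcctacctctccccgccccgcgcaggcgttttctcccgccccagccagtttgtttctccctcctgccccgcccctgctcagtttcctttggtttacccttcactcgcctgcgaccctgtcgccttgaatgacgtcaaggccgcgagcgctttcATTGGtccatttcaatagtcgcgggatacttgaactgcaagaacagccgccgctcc
SPC25 (chr2:168890431-168890680, minus strand): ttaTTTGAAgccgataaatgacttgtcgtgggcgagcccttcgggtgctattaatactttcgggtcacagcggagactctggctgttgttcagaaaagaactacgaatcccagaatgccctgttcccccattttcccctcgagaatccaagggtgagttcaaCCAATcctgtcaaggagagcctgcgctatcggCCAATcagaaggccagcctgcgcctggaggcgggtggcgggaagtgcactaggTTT
KIF15 (chr3:44761544-44761793, plus strand): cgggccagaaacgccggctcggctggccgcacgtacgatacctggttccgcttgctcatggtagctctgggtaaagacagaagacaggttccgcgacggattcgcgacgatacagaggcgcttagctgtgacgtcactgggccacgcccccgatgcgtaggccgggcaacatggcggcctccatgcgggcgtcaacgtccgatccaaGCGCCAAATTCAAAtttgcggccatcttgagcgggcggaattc
PTTG1 (chr5:160421605-160421854, plus strand): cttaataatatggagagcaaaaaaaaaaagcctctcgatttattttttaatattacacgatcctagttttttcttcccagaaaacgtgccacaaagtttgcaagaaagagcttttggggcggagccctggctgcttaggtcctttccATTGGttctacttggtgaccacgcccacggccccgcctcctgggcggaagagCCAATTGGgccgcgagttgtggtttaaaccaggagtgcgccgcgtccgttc
The CCNA2 stretch holds 1 CCAAT match, 56 bases before the start, on the minus strand of the gene. The SPC25 stretch holds 2 CCAAT matches, 88 and 56 bases before the start, and a CHR match that begins 247 bases before it. A further CHR match that begins 3 bases before the start runs into the transcript, so that only its first letters are printed. In KIF15 an E2F match and a CHR match lie side by side, beginning 43 and 35 bases before the start, both on the minus strand. PTTG1 holds 3 CCAAT matches, of which the pair beginning 51 and 48 bases before the start overlap on opposite strands.

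Over the 300 bases, 32 of 45 promoters (71.1%) held a CHR match, against 16.6% of all 27305 promoters and 13.5% of the 15842 promoters of protein-coding genes. A CCAAT match was also present in 32 of 45 (71.1%), against 35.7% and 36.4%. Both were present in 24 of 45 (53.3%), against 6.6% and 5.6%. The E2F letters were rare, in 4 of 45 (8.9%), against 4.7% and 6.3%. The CHR letters stood in 7 of 9 kinetochore promoters, 6 of 9 kinesin promoters and 7 of 7 spindle and cytokinesis promoters, but in 2 of 6 promoters of the cyclin subgroup, those of CCNB2 and CDK1. These counts describe exact letters in a window and show no binding. Variant letters of the elements were not searched, so a promoter without a match, such as that of CCNA2, may still hold a CHR.

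**Figure D1:**
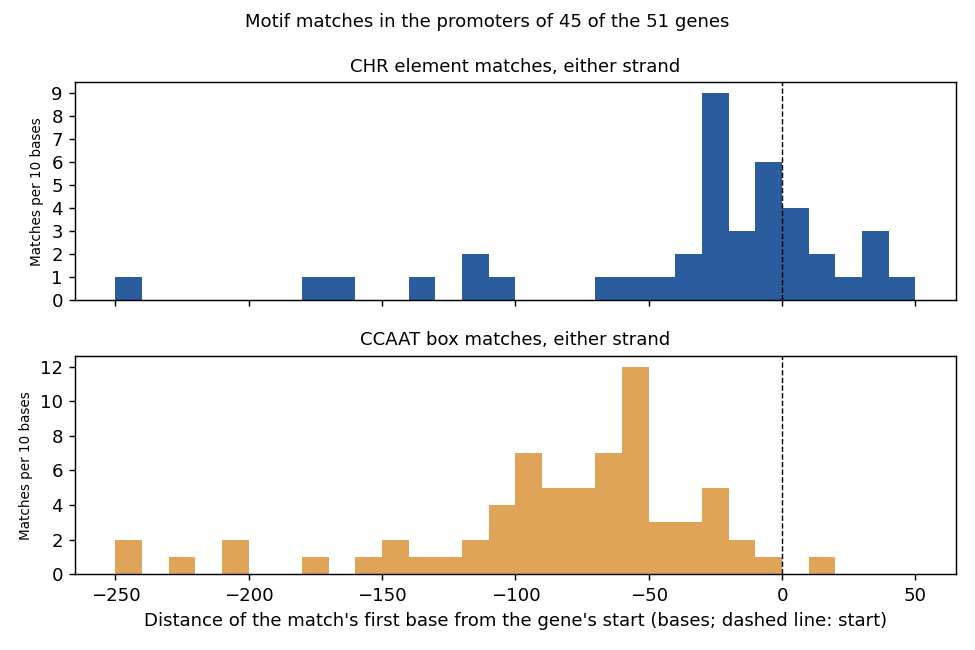
Position of CHR and CCAAT matches in the 45 promoters, as the number of matches per 10 bases against the distance of a match's first base from the gene's start (dashed line). Of 41 CHR matches, 32 lie within 50 bases of the start (median -22), and the 68 CCAAT matches lie mostly farther upstream (median -70), 15 of them within 50 bases.

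This whole set was lower in CAL51 after 48 h with doxorubicin than in the untreated cultures. The same untreated cultures, for which no time is labelled, served as the reference at 24 h and 48 h. Drug and time in culture therefore cannot be told apart. Every one of the 51 genes fell (limma, Benjamini-Hochberg adjusted p under 0.05 over all 19775 genes, where 11.2% of genes were lower and 10.5% higher), and none rose. The median of their log2 fold changes was -0.61, against -0.02 over all genes, and the range ran from -1.19 for KIF15 to -0.25 for PTTG1. For all 51, the 3 arrays at 48 h lay below the 3 untreated arrays, an order found for 18.6% of all genes. Most changes were modest in size, and KIF15 (2.28-fold), SPC25 (2.09-fold) and SKA1 (2.05-fold) were the ones that fell by at least 2-fold.

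At 24 h the same direction was present at a smaller size. Of the 51 genes 26 fell and none rose, where 4.34% of all genes were lower and 5.77% higher, and 48 of 51 had a log2 fold change below 0. The median was -0.26, against -0.03 over all genes, and for 39 genes all 24 h arrays lay below all untreated arrays (12.7% of all genes). The count fell to 14 when the fit held only the 6 arrays compared. With the array interquartile range as a covariate, a choice made after seeing the data, 37 members were lower and 1 higher, beside 1692 genes lower and 1348 higher among all genes (858 and 1141 without it).

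Between 24 h and 48 h, 39 of the 51 genes fell further and none rose, where 5.34% of all genes were lower, with a median of -0.35 against 0.01. For 43 genes the arrays of the 2 times did not overlap (11.4% of all genes had 48 h arrays all below the 24 h arrays). The count was 24 in a fit of the 6 arrays compared. The 24 h and 48 h comparisons share the untreated arrays, so their values are given side by side and not set against each other.

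**Figure D2:**
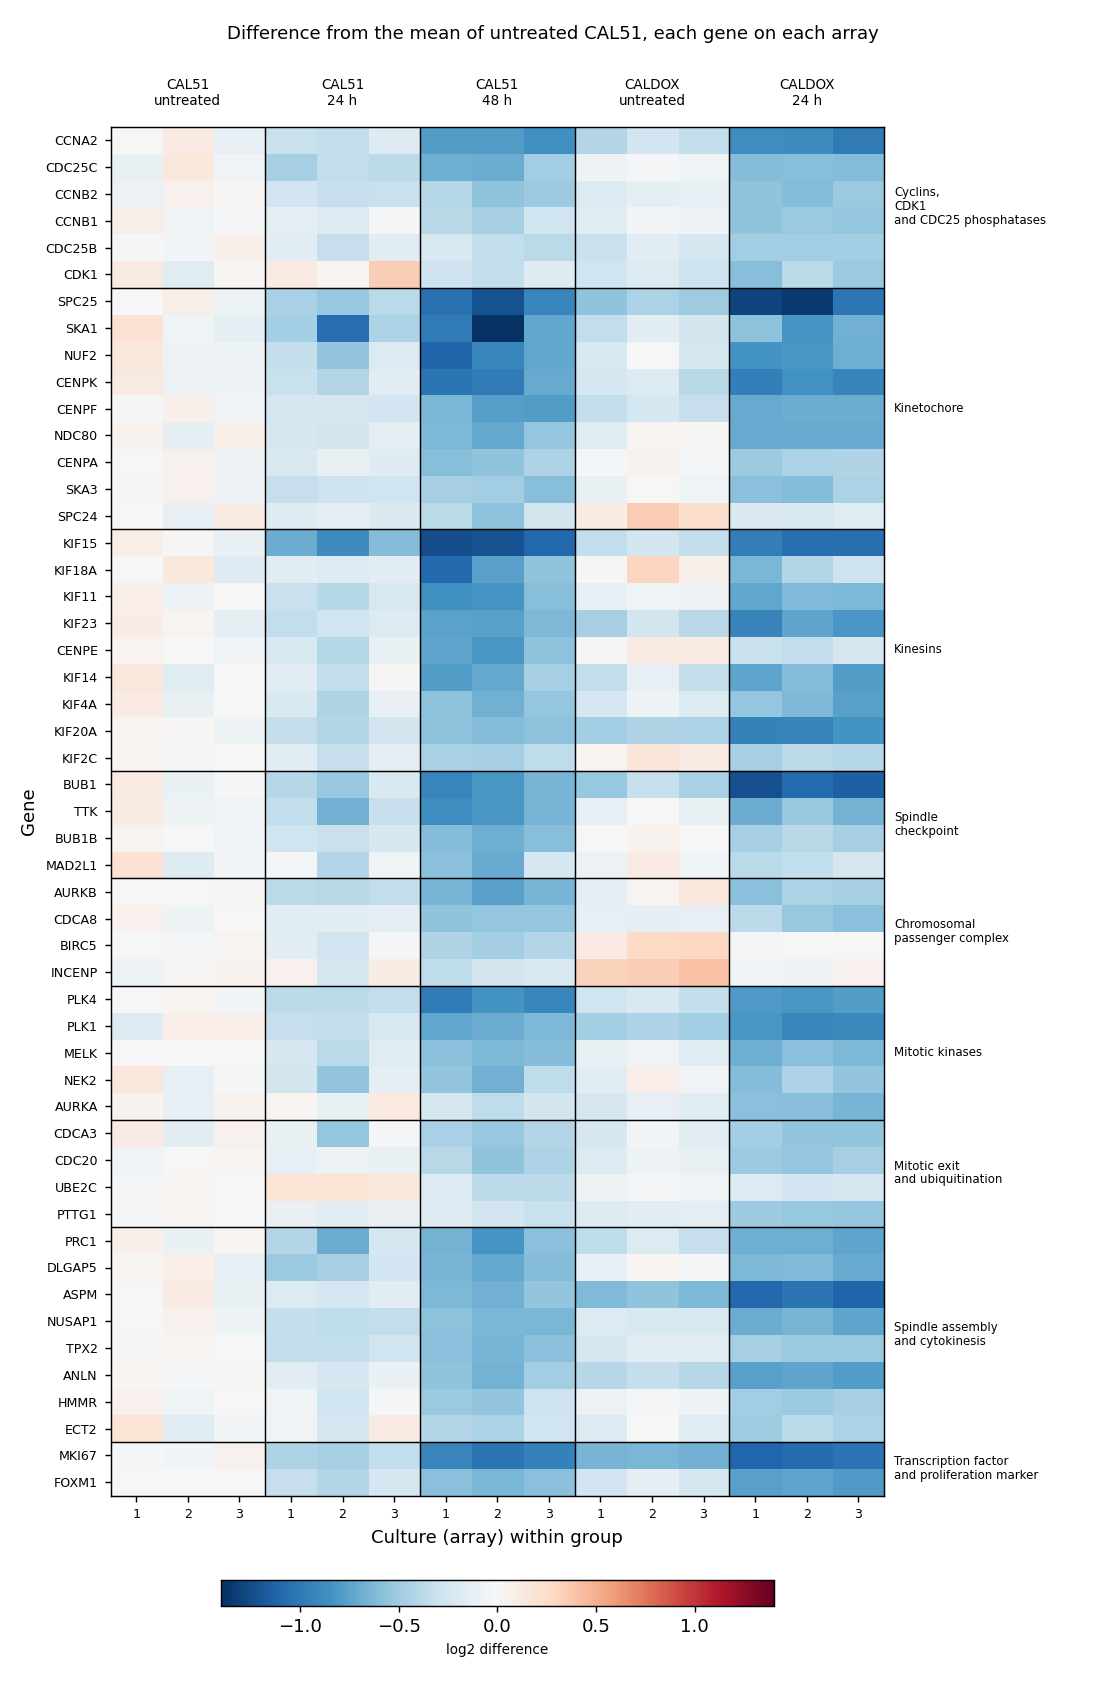
Each of the 51 genes (vertical axis, by subgroup) on each of the 15 arrays (horizontal axis, 3 cultures per group), coloured by the log2 difference from the gene's mean in untreated CAL51. CAL51 at 48 h and CALDOX at 24 h are blue for nearly all genes, CAL51 at 24 h is paler, and INCENP, BIRC5 and SPC24 are red in untreated CALDOX.

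All 6 genes of the cyclin and CDK1 subgroup fell at 48 h (median -0.43) and 3 fell at 24 h, namely CCNA2, CCNB2 and CDC25C. CCNA2, the cyclin that acts from S phase into early mitosis, was the most reduced. It measured 11.55, 11.66 and 11.42 in untreated CAL51, 11.23, 11.21 and 11.36 at 24 h, and 10.76, 10.76 and 10.68 at 48 h. Each group of arrays lay wholly below the one before. The log2 fold change was -0.28 ± 0.07 (SE) at 24 h (limma adjusted p = 0.019) and -0.81 ± 0.07 at 48 h (adjusted p = 5.2e-07).

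CDK1, the kinase that starts mitosis, behaved differently at 24 h. Its arrays read 11.56, 11.26 and 11.46 untreated, 11.55, 11.46 and 11.77 at 24 h, and 11.14, 11.08 and 11.25 at 48 h. The untreated and 24 h arrays overlapped, and the 48 h arrays lay just below both. The difference was 0.17 ± 0.09 at 24 h (limma adjusted p = 0.31) and -0.27 ± 0.09 at 48 h (adjusted p = 0.046). The 48 h call was lost in 12 of 24 alternative fits, with adjusted p up to 0.19. The 3 other CDK1 probe sets fell by 0.42 to 0.47 at 48 h, and at 24 h they read -0.12, -0.11 and -0.47, the last of them called, so the brightest probe set gives the smallest 48 h change of the 4.

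CCNB1, the cyclin partner of CDK1, fell by 0.38 ± 0.07 at 48 h (limma adjusted p = 0.00049), with -0.11 ± 0.07 at 24 h. CDC25C, a phosphatase that activates CDK1, fell at both times, by 0.40 ± 0.07 at 24 h (adjusted p = 0.002) and by 0.62 ± 0.07 at 48 h (adjusted p = 1.1e-05). Its 24 h and 48 h arrays did not overlap, though the further change of -0.23 was not called (adjusted p = 0.063). CDC25B, a phosphatase acting at the centrosome, fell by 0.31 at 48 h. CCNB2, a further cyclin B, fell by 0.49 at 48 h on its brightest probe set. Its other probe sets, both far dimmer, read 0.06 and 0.17 and were not called, and with the mean of its probe sets the 48 h change was -0.09 (limma adjusted p = 0.38).

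All 9 kinetochore genes fell at 48 h with a median of -0.73, 5 of them already at 24 h, and for all 9 the 24 h arrays lay below the untreated ones. SPC25, a subunit of the NDC80 complex that binds microtubules, read 9.25, 9.32 and 9.16 untreated, 8.79, 8.71 and 8.86 at 24 h, and 8.20, 8.02 and 8.33 at 48 h. The 3 groups were separate and in descending order. It fell by 0.46 ± 0.09 at 24 h (limma adjusted p = 0.0038), by a further 0.60 ± 0.09 (adjusted p = 0.00067), and by 1.06 ± 0.09 in all at 48 h (adjusted p = 4.8e-07).

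The other subunits of that complex followed with different sizes. NUF2 fell by 0.92 ± 0.11 and NDC80 by 0.63 ± 0.07 at 48 h (limma adjusted p = 1.3e-05 and 1.1e-05). SPC24, the direct partner of SPC25, changed least of the kinetochore genes. Its arrays read 9.14, 9.02 and 9.24 untreated, 8.95, 9.0 and 8.93 at 24 h, and 8.75, 8.56 and 8.87 at 48 h. The groups again did not overlap, but the steps were small: -0.17 ± 0.08 at 24 h (adjusted p = 0.23) and -0.41 ± 0.08 at 48 h (adjusted p = 0.0018).

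SKA1, part of the SKA complex that keeps kinetochores on moving microtubule ends, had the largest spread of all members. It read 7.84, 7.58 and 7.51 untreated, 7.16, 6.57 and 7.20 at 24 h, and 6.65, 6.26 and 6.91 at 48 h. Both treated groups lay below the untreated one, and they overlapped each other because replicate 2 at 24 h was low. The changes were -0.66 ± 0.16 at 24 h (limma adjusted p = 0.016) and -1.04 ± 0.16 at 48 h (adjusted p = 0.00021). CENPK, a subunit of the constitutive centromere network, changed mostly after 24 h. It read 9.43, 9.22 and 9.23 untreated, 8.99, 8.89 and 9.15 at 24 h, and 8.28, 8.32 and 8.60 at 48 h, with no overlap between groups. The step from 24 h to 48 h was -0.61 ± 0.09 (adjusted p = 0.00071), after -0.28 ± 0.09 at 24 h (adjusted p = 0.071). CENPF, an outer kinetochore protein, fell by 0.73 at 48 h, CENPA, the histone variant that marks the centromere, by 0.53, and SKA3 by 0.52.

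All 9 kinesins fell at 48 h (median -0.70), 5 of them at 24 h, and this was the subgroup of 4 or more genes in which every gene also fell between 24 h and 48 h. KIF15, a motor that helps keep the spindle bipolar alongside KIF11, was the most reduced gene of the 51 at both times. It read 9.58, 9.51 and 9.39 untreated, 8.80, 8.61 and 8.88 at 24 h, and 8.25, 8.27 and 8.39 at 48 h. No group overlapped another. Its fall was 0.73 ± 0.07 at 24 h (limma adjusted p = 7.9e-06) and 1.19 ± 0.07 at 48 h (adjusted p = 1.8e-08).

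KIF18A, which damps chromosome movement at the metaphase plate, followed a later course. It read 8.62, 8.76 and 8.43 untreated, 8.45, 8.42 and 8.45 at 24 h, and 7.52, 7.85 and 8.05 at 48 h. The 24 h arrays overlapped the untreated ones, and the 48 h arrays were all lower. The change was -0.17 ± 0.12 at 24 h (limma adjusted p = 0.48) and -0.63 ± 0.12 from 24 h to 48 h (adjusted p = 0.0039). KIF2C, a kinesin that depolymerizes microtubules, was the least reduced, reading 10.26, 10.21 and 10.22 untreated, 10.07, 9.91 and 10.09 at 24 h, and 9.78, 9.77 and 9.87 at 48 h. Its small steps were separate on the arrays. The 24 h change of -0.21 ± 0.06 (adjusted p = 0.048) lost its call in 16 of 24 alternative fits, with adjusted p up to 0.19, and the 48 h change was -0.42 ± 0.06 (adjusted p = 0.00011). The other 6 kinesins fell by 0.58 to 0.76 at 48 h, from KIF20A, a motor of cytokinesis, to KIF11, the main spindle pole separating motor. CENPE, which carries chromosomes to the spindle equator, fell by 0.70.

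The 4 spindle checkpoint genes all fell at 48 h (median -0.70), and BUB1, BUB1B and TTK fell at 24 h. BUB1, a kinase that recruits checkpoint proteins to the kinetochore, read 10.02, 9.81 and 9.88 untreated, 9.50, 9.37 and 9.69 at 24 h, and 8.98, 9.08 and 9.25 at 48 h. The groups were separate, with changes of -0.38 ± 0.09 (limma adjusted p = 0.013) and -0.80 ± 0.09 (adjusted p = 1e-05). Of the 4 other BUB1 probe sets the next brightest fell by 0.79 at 48 h, and the mean over all its probe sets gave -0.46. MAD2L1, the inhibitor that binds CDC20, was more variable, at 11.79, 11.41 and 11.55 untreated, 11.56, 11.18 and 11.54 at 24 h, and 11.01, 10.88 and 11.36 at 48 h. Only its 48 h change was called, at -0.50 ± 0.13 (adjusted p = 0.0088), and that call was lost in 2 of 24 alternative fits. TTK, the kinase that starts checkpoint signalling, fell by 0.77 at 48 h and BUB1B by 0.62.

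The chromosomal passenger complex also fell in all 4 genes at 48 h (median -0.49), and AURKB, its kinase, was the one called at 24 h. AURKB read 9.45, 9.45 and 9.48 untreated, 9.09, 9.07 and 9.12 at 24 h, and 8.81, 8.70 and 8.81 at 48 h. The groups were tight and separate, and the changes were -0.37 ± 0.07 (limma adjusted p = 0.0024) and -0.69 ± 0.07 (adjusted p = 2.5e-06). INCENP, the scaffold of the complex, read 8.14, 8.23 and 8.26 untreated, 8.27, 7.96 and 8.31 at 24 h, and 7.85, 7.95 and 8.00 at 48 h. It fell by 0.28 ± 0.08 at 48 h (adjusted p = 0.022), a call lost in 3 of 24 alternative fits (adjusted p up to 0.094), while the 24 h arrays spread across both other groups (-0.03 ± 0.08, adjusted p = 0.87).

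BIRC5, or survivin, links the complex to chromatin. Its arrays read 10.99, 10.96 and 11.03 untreated, 10.83, 10.72 and 10.96 at 24 h, and 10.57, 10.50 and 10.58 at 48 h. The 48 h arrays were the lowest of all, with a fall of 0.44 ± 0.07 (limma adjusted p = 0.00015), and the 24 h arrays just touched the untreated ones. CDCA8, or borealin, fell by 0.55 at 48 h.

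The 5 other mitotic kinases all fell at 48 h (median -0.61), and PLK4, PLK1 and MELK fell at 24 h. PLK4, which licenses centriole duplication, read 10.17, 10.20 and 10.13 untreated, 9.80, 9.80 and 9.83 at 24 h, and 9.19, 9.33 and 9.26 at 48 h. Each step was several times the spread within a group, at -0.36 ± 0.06 and -0.90 ± 0.06 against untreated (limma adjusted p = 0.00056 and 1.4e-08). AURKA, the centrosome kinase that activates PLK1, read 10.93, 10.77 and 10.93 untreated, 10.92, 10.78 and 11.02 at 24 h, and 10.63, 10.52 and 10.62 at 48 h. The untreated and 24 h arrays overlapped almost completely (0.03 ± 0.07, adjusted p = 0.86), and the fall came by 48 h (-0.29 ± 0.07, adjusted p = 0.0067). PLK1, a kinase of mitotic entry and exit, fell by 0.69 at 48 h, MELK by 0.61 and NEK2, which separates centrosomes, by 0.53.

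Of the 4 genes of mitotic exit and ubiquitination none was called at 24 h, and all 4 fell at 48 h, with the smallest subgroup median (-0.38). CDCA3, which helps the degradation of WEE1, read 10.79, 10.53 and 10.74 untreated, 10.58, 10.14 and 10.66 at 24 h, and 10.23, 10.15 and 10.27 at 48 h. It fell by 0.47 ± 0.11 at 48 h (limma adjusted p = 0.0047), and replicate 2 at 24 h stood as low as the 48 h arrays. PTTG1, the securin that holds separase inactive, read 12.12, 12.18 and 12.16 untreated, 12.05, 12.00 and 12.05 at 24 h, and 11.97, 11.89 and 11.84 at 48 h. Its fall was the smallest of the 51 but the groups did not overlap (-0.25 ± 0.05 at 48 h, adjusted p = 0.002). CDC20, the activator of the APC/C, fell by 0.46 at 48 h.

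UBE2C, the ubiquitin-conjugating enzyme that works with the APC/C, went the other way at 24 h. It read 10.90, 10.97 and 10.92 untreated, 11.12, 11.12 and 11.09 at 24 h, and 10.74, 10.56 and 10.56 at 48 h. It was the one gene of the 51 whose 24 h arrays all lay above the untreated ones. The 24 h difference of 0.18 ± 0.06 was not called (limma adjusted p = 0.067) but was in 6 alternative fits, and it was followed by a fall of 0.49 ± 0.06 to 48 h (adjusted p = 0.00013).

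The 8 genes of spindle assembly and cytokinesis all fell at 48 h (median -0.61), and PRC1, DLGAP5, NUSAP1 and TPX2 fell at 24 h. PRC1, which bundles the microtubules of the central spindle, read 11.43, 11.27 and 11.39 untreated, 10.95, 10.66 and 11.11 at 24 h, and 10.70, 10.53 and 10.77 at 48 h. Most of its fall was already there at 24 h (-0.46 ± 0.10, limma adjusted p = 0.0062), and the 2 treated groups overlapped. ASPM, a spindle pole protein, read 11.26, 11.38 and 11.17 untreated, 11.08, 11.03 and 11.12 at 24 h, and 10.64, 10.60 and 10.72 at 48 h. It fell by 0.62 ± 0.06 at 48 h (adjusted p = 2.9e-06). ECT2, the exchange factor that activates RhoA for the contractile ring, read 11.80, 11.44 and 11.57 untreated, 11.56, 11.38 and 11.72 at 24 h, and 11.20, 11.17 and 11.33 at 48 h. The first 2 groups overlapped, and the 48 h arrays were below both (-0.37 ± 0.10, adjusted p = 0.011). The other 5 genes fell by 0.45 to 0.66 at 48 h, from HMMR to DLGAP5, with TPX2, which activates AURKA on the spindle, at -0.61.

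FOXM1 and MKI67 both fell at both times. FOXM1, an activator of G2 and mitosis genes, read 10.78, 10.77 and 10.78 untreated, 10.46, 10.37 and 10.54 at 24 h, and 10.19, 10.14 and 10.20 at 48 h. The groups were separate, with falls of 0.32 ± 0.06 and 0.60 ± 0.06 (limma adjusted p = 0.0018 and 1.5e-06). MKI67, which encodes the Ki-67 protein of proliferating cells, read 10.98, 10.97 and 11.07 untreated, 10.58, 10.55 and 10.66 at 24 h, and 10.09, 9.99 and 10.06 at 48 h. It fell by 0.41 ± 0.06 and by 0.96 ± 0.06 (adjusted p = 0.00013 and 7.3e-09), again with no overlap.

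**Figure D3:**
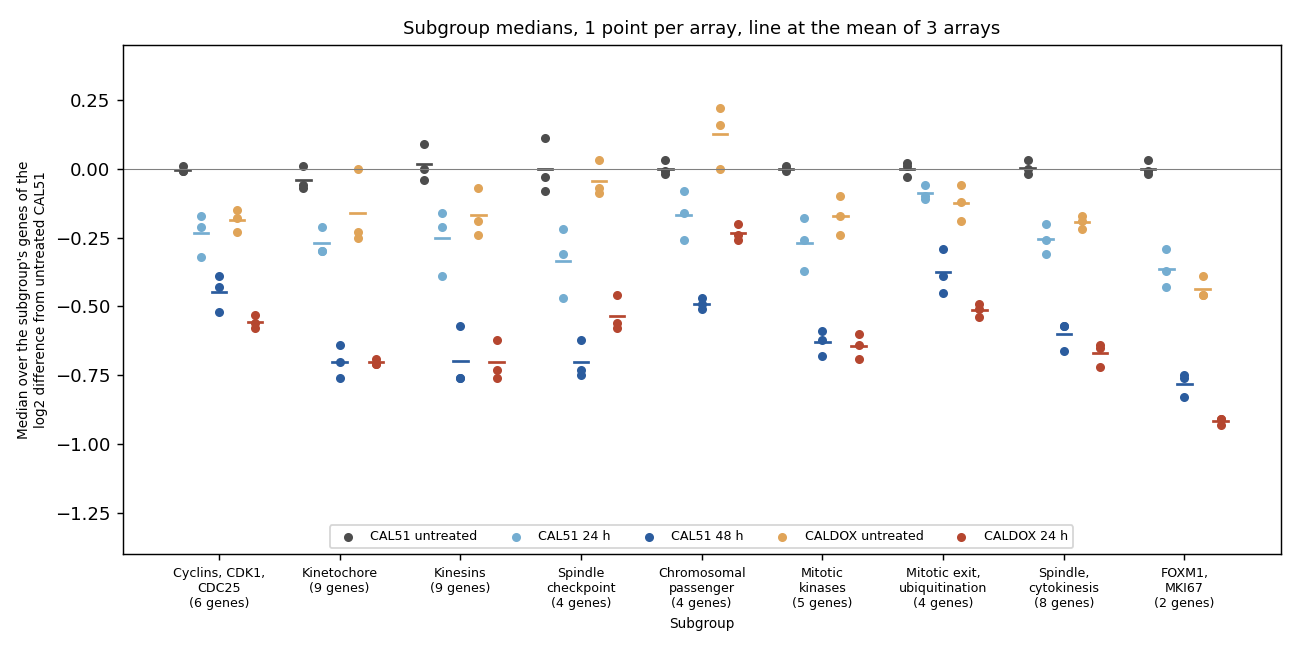
Median log2 difference from untreated CAL51 over the genes of each subgroup, 1 point per array, with a line at the mean of the 3 arrays of a group. At 48 h the kinetochore, kinesin and checkpoint genes lie lowest among subgroups of 4 or more genes, and in untreated CALDOX only the chromosomal passenger genes lie above 0 on average.

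Compared by subgroup, the kinetochore and kinesin genes lay below the cyclin subgroup at 48 h in CAL51, on each of the 3 arrays. Their median log2 fold changes were -0.73 and -0.70, beside -0.43 for the cyclin subgroup. At 24 h the medians were -0.28, -0.25 and -0.24, and the arrays of the 3 subgroups overlapped. In untreated CALDOX, relative to untreated CAL51, they were -0.16, -0.17 and -0.19. In CALDOX at 24 h the 3 medians were closer, at -0.49, -0.48 and -0.43. The subgroup of mitotic exit had -0.10 at 24 h, -0.38 at 48 h and -0.38 in CALDOX. These medians rest on 4 to 9 genes and were not tested against each other. They use the brightest probe sets, and the 48 h values of CDK1 and CCNB2 differed between probe sets, as given above. Other values moved towards 0 with the mean of a gene's probe sets. CENPF, whose -0.73 is the kinetochore median, gave -0.39. SPC24 gave -0.24, KIF23 among the kinesins -0.47 and CDC25C in the cyclin subgroup -0.38. Signal level differed too. As percentiles of all genes, mean levels ran from 57.4 to 96.5 in the cyclin subgroup, 36.4 to 90.0 in the kinetochore and 61.2 to 86.8 in the kinesins. The part of signal level in these medians was not tested.

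Untreated CALDOX differed from untreated CAL51 in part of the set. CALDOX had 19 genes lower and 3 higher, at a background of 11.7% lower and 14.2% higher among all genes, and a median of -0.14 against 0.00 over all genes. For 25 genes all CALDOX arrays lay below all CAL51 arrays, an order found for 17.5% of all genes. FOXM1 and MKI67 were both lower, 5 of 8 spindle and cytokinesis genes were lower, and of the kinetochore and kinesin genes 3 of 9 each. No passenger complex gene was lower.

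MKI67 differed most. It read 10.36, 10.37 and 10.34 in CALDOX, far below the CAL51 arrays given above, a difference of -0.65 ± 0.06 (limma adjusted p = 1.4e-07). ASPM read 10.65, 10.71 and 10.64, lower by 0.60 ± 0.06 (adjusted p = 1.6e-06). SPC25 read 8.68, 8.80 and 8.74, lower by 0.50 ± 0.09 (adjusted p = 0.00045). For all 3 genes the lines did not overlap.

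Smaller falls were found for BUB1 (9.37, 9.58 and 9.45 in CALDOX, -0.44 ± 0.09, limma adjusted p = 0.0017), CCNA2 (11.13, 11.27 and 11.21, -0.34 ± 0.07, adjusted p = 0.0014) and KIF15 (9.14, 9.23 and 9.16, -0.32 ± 0.07, adjusted p = 0.0036). PRC1 read 11.00, 11.17 and 11.04 (-0.29 ± 0.10, adjusted p = 0.036), PLK4 9.89, 9.96 and 9.84 (-0.27 ± 0.06, adjusted p = 0.0014) and CENPK 9.05, 9.11 and 8.91 (-0.27 ± 0.09, adjusted p = 0.042). FOXM1 read 10.51, 10.64 and 10.53 (-0.22 ± 0.06, adjusted p = 0.0096) and PTTG1 11.97, 12.00 and 12.01 (-0.16 ± 0.05, adjusted p = 0.034). All 8 of these genes had CALDOX arrays wholly below the CAL51 arrays. The call was lost in 9 of 24 alternative fits for CENPK (adjusted p up to 0.18), in 7 for PTTG1 (up to 0.10), in 4 for PRC1 (up to 0.12) and in 1 for PLK4 (0.062). The other 8 lower genes were PLK1 (-0.46), KIF20A (-0.44), ANLN (-0.38), KIF23 (-0.37), CENPF (-0.30), CDC25B (-0.24), NUSAP1 (-0.20) and TPX2 (-0.19).

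The 3 genes that were higher in CALDOX were INCENP, BIRC5 and SPC24. INCENP read 8.53, 8.56 and 8.62, above every CAL51 array of any treatment, and was higher by 0.36 ± 0.08 (limma adjusted p = 0.0033) in all 24 alternative fits too. BIRC5 read 11.10, 11.27 and 11.28, higher by 0.23 ± 0.07 (adjusted p = 0.017), and 2 of its 3 other probe sets were higher as well, by 0.23 and 0.39. SPC24 read 9.23, 9.49 and 9.38, which overlaps the CAL51 arrays (0.24 ± 0.08, adjusted p = 0.047), and its other probe set gave 0.08, not called. With each array centred on its median, INCENP alone stayed higher, as it did without CAL51 untreated replicate 2 or without CALDOX untreated replicate 2 or 3.

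The remaining genes named above were not called between the lines. CDK1 read 11.15, 11.24 and 11.14 in CALDOX, below the CAL51 arrays (-0.25 ± 0.09, limma adjusted p = 0.061), and its 3 other probe sets were called lower, by 0.38 to 0.54. AURKA read 10.64, 10.77 and 10.71 (-0.17 ± 0.07, adjusted p = 0.098), and ECT2 read 11.42, 11.60 and 11.44 (-0.12 ± 0.10). For KIF2C (10.27, 10.40 and 10.35) the CALDOX arrays all lay above the CAL51 arrays, with a difference of 0.11 ± 0.06 that was not called (adjusted p = 0.26).

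SKA1 read 7.30, 7.49 and 7.38 in CALDOX (-0.25 ± 0.16), CDCA3 10.45, 10.64 and 10.53 (-0.14 ± 0.11), and KIF18A 8.63, 8.91 and 8.69 (0.14 ± 0.12). AURKB (9.33, 9.50 and 9.61), NDC80 (9.53, 9.74 and 9.72), MAD2L1 (11.51, 11.70 and 11.53) and UBE2C (10.86, 10.91 and 10.88) overlapped the CAL51 arrays, with differences between -0.05 and 0.02.

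In CALDOX the set was also lower after 24 h with 4 µM doxorubicin than in the cultures labelled untreated. The treated cultures had first been kept for 3 passages without drug, which the labels do not state for the untreated ones. The dose and the drug-free passages therefore cannot be told apart. Of 51 genes 47 fell and none rose, where 5.5% of all genes were lower and 4.82% higher, and the median was -0.45 against -0.01 over all genes. For all 51 the treated arrays lay wholly below the untreated CALDOX arrays, an order found for 17.1% of all genes. The exceptions to the call were CDK1, MAD2L1, SKA1 and UBE2C, whose differences lay between -0.44 and -0.18. The range was narrower than at 48 h in CAL51, from -0.72 for BUB1 to -0.18 for UBE2C.

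BUB1 read 8.67, 8.82 and 8.76 in treated CALDOX, a fall of 0.72 ± 0.09 (limma adjusted p = 9.3e-05). Its next brightest probe set fell by 0.61, and the mean over its 5 probe sets gave -0.31, so its place as the largest fall rests on the brightest one. SPC25 read 7.96, 7.90 and 8.23, a fall of 0.71 ± 0.09 (adjusted p = 9.6e-05), and KIF15 read 8.52, 8.44 and 8.44, a fall of 0.71 ± 0.07 (adjusted p = 1.5e-05). These 3 fell most, and all of them had already been lower in untreated CALDOX than in CAL51. CCNA2 followed with 10.67, 10.65 and 10.55, a fall of 0.58 ± 0.07 (adjusted p = 5.7e-05).

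Among the other kinetochore genes, CENPK read 8.34, 8.45 and 8.37 (-0.64 ± 0.09), SPC24 8.93, 8.91 and 8.96 (-0.43 ± 0.08), and SKA1 7.07, 6.81 and 6.97 (-0.44 ± 0.16, limma adjusted p = 0.11, not called). Among the kinesins, KIF18A read 7.97, 8.20 and 8.32 (-0.58 ± 0.12) and KIF2C 9.77, 9.86 and 9.83 (-0.52 ± 0.06). Apart from SKA1, each of these falls was called.

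In the passenger complex, INCENP and BIRC5 fell from their raised level in CALDOX. INCENP read 8.17, 8.14 and 8.27 after treatment (-0.38 ± 0.08, limma adjusted p = 0.0066) and BIRC5 10.96, 11.00 and 10.98 (-0.24 ± 0.07, adjusted p = 0.03), which put both within or next to the range of untreated CAL51. The BIRC5 call was lost in 5 of 24 alternative fits (adjusted p up to 0.13). AURKB read 8.88, 9.02 and 9.0 (-0.52 ± 0.07, adjusted p = 0.00013).

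Of the rest, PLK4 read 9.38, 9.35 and 9.39 (-0.53 ± 0.06), FOXM1 10.02, 10.04 and 9.99 (-0.54 ± 0.06), MKI67 9.90, 9.93 and 9.98 (-0.42 ± 0.06) and ASPM 10.17, 10.25 and 10.15 (-0.48 ± 0.06). PRC1 read 10.68, 10.68 and 10.62 (-0.41 ± 0.10), PTTG1 11.64, 11.62 and 11.61 (-0.37 ± 0.05), CDCA3 10.20, 10.13 and 10.13 (-0.39 ± 0.11) and ECT2 11.11, 11.23 and 11.17 (-0.32 ± 0.10, adjusted p = 0.047). All 8 were called lower in limma, though in 24 alternative fits ECT2 lost its call 12 times, CDCA3 5 times and PRC1 once. Without a call, MAD2L1 read 11.21, 11.24 and 11.36 (-0.31 ± 0.13, adjusted p = 0.17) and CDK1 10.83, 11.05 and 10.91 (-0.24 ± 0.09, adjusted p = 0.12).

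**Figure D4:**
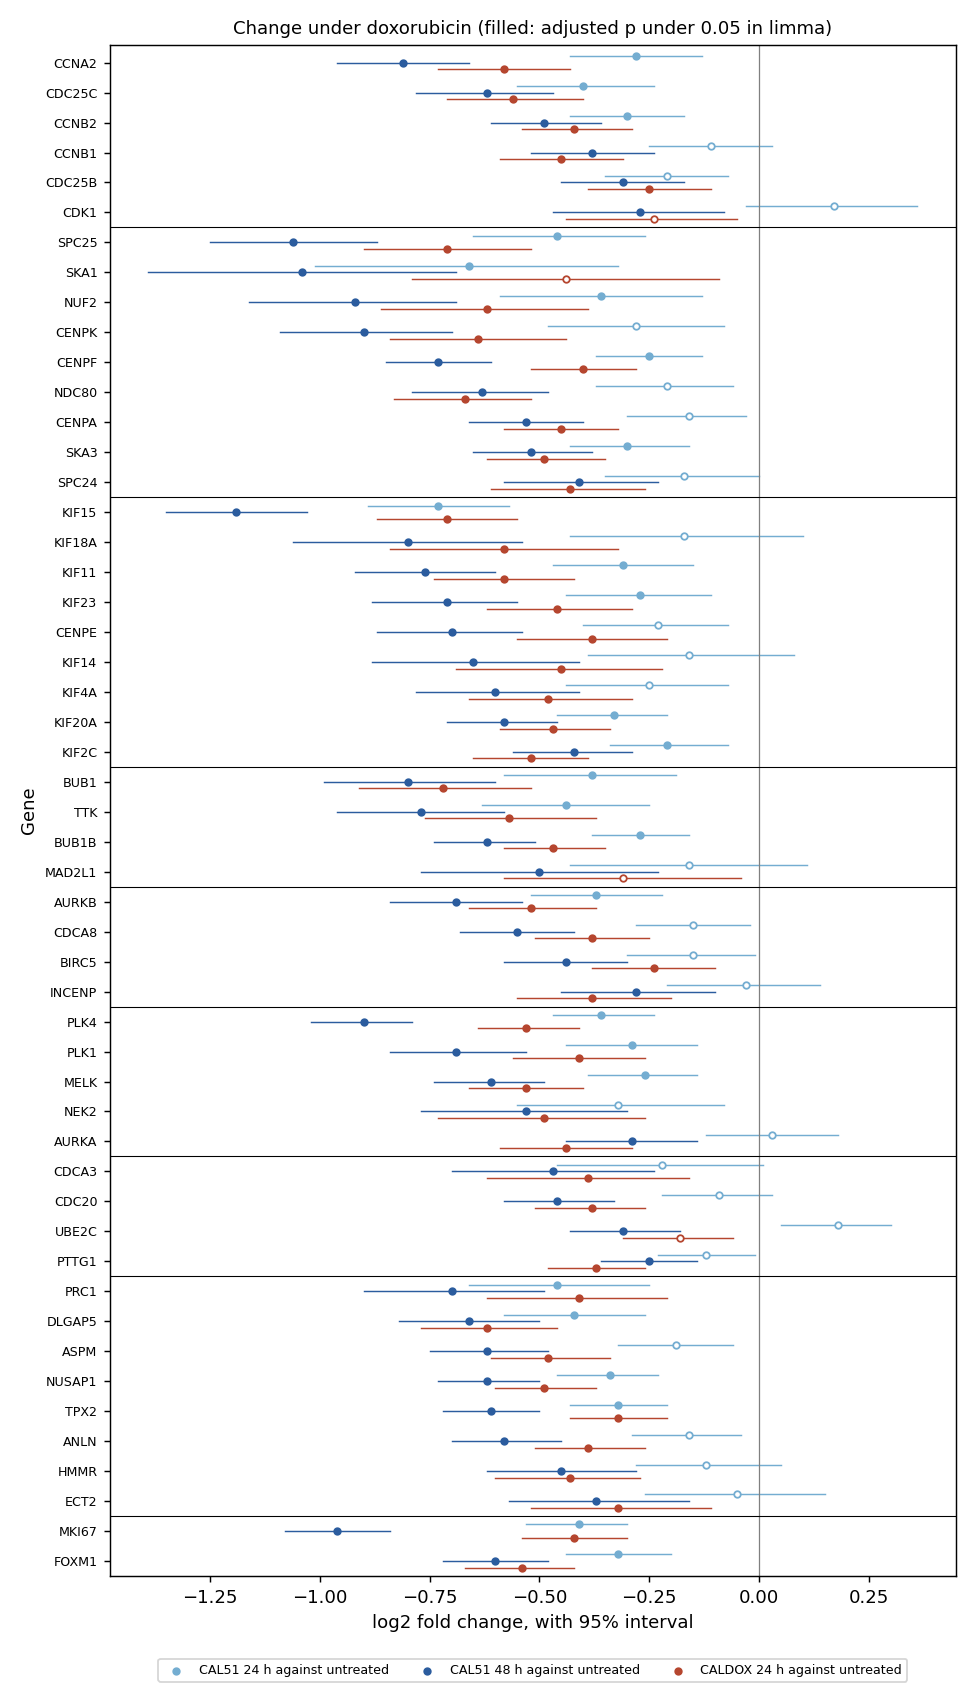
Log2 fold change of each gene (vertical axis, by subgroup) with its 95% interval in CAL51 at 24 h and 48 h and in CALDOX at 24 h, each against its own untreated cultures; filled points passed an adjusted p of 0.05 in limma. All 51 points for CAL51 at 48 h and 47 for CALDOX at 24 h are filled and below 0, against 26 for CAL51 at 24 h.

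The 24 h response was then compared between the lines as a difference of differences, which sets 4 µM in CALDOX beside 0.4 µM in CAL51 and so cannot tell line from dose. For 47 of 51 genes the response in CALDOX was the more negative, with a median difference of -0.23, against 0.01 over all genes. The difference itself was called for 3 genes, AURKA, NDC80 and UBE2C, where 0.855% of all genes were called lower. For the other 48 genes a difference between the responses was not shown.

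AURKA read 10.29, 10.28 and 10.23 in treated CALDOX, a fall of 0.44 ± 0.07 (limma adjusted p = 0.00062), beside 0.03 in CAL51 at 24 h. The difference of the responses was -0.47 ± 0.10 (adjusted p = 0.026), and the other AURKA probe sets gave -0.42, which was called, and -0.05, on the dimmest, which was not. With the mean of the AURKA probe sets the difference was -0.31 (adjusted p = 0.07). NDC80, the microtubule-binding subunit of its complex, read 9.75, 9.57 and 9.78 in untreated CAL51, 9.46, 9.44 and 9.56 at 24 h and 9.07, 8.98 and 9.16 at 48 h. In CALDOX after treatment it read 8.99 on all 3 arrays, and its responses differed by -0.46 ± 0.10 (adjusted p = 0.039).

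UBE2C read 10.74, 10.66 and 10.70 in treated CALDOX, -0.18 ± 0.06 from untreated, against the 0.18 above untreated in CAL51. Its difference was -0.36 ± 0.08 (limma adjusted p = 0.041), though neither response alone was called. KIF18A and CDK1 had differences of the same size (-0.41 for each, adjusted p = 0.37 and 0.17) that were not called, and SKA1 had the most positive, 0.22 ± 0.23. Over the alternative fits the CDK1 difference ran from -0.48 to -0.14. All 3 calls were lost with each array centred on its median (adjusted p just over 0.05 for AURKA, 0.063 for NDC80 and 0.051 for UBE2C), and no gene of the set was called in 8 of the 12 fits that left out an array of the 4 groups compared.

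**Figure D5:**
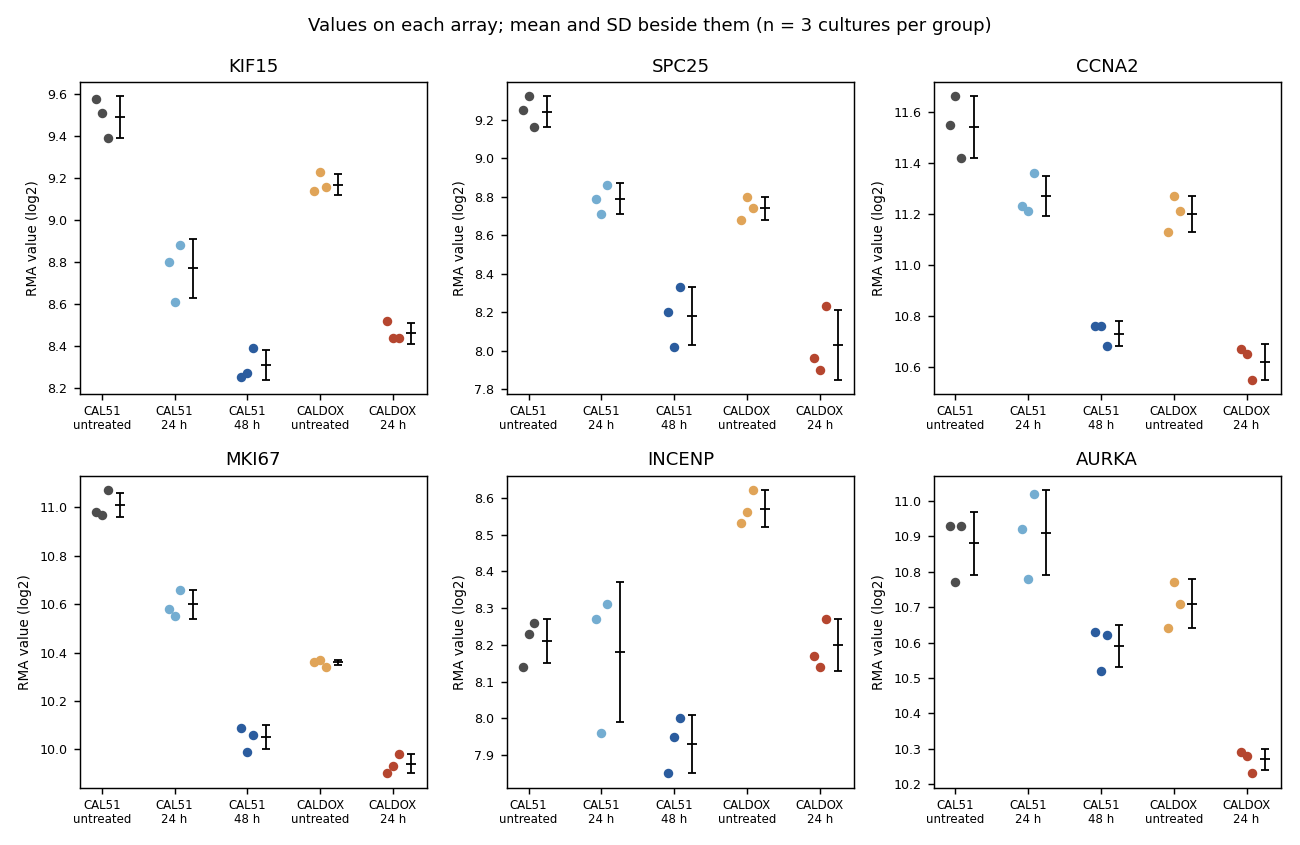
RMA values (log2) of 6 genes on each array of the 5 groups, with the mean and SD of the 3 cultures beside the points; each vertical axis has its own range. KIF15, SPC25, CCNA2 and MKI67 step down from untreated to 48 h in CAL51, INCENP is highest in untreated CALDOX, and AURKA at 24 h is low in CALDOX but not in CAL51.

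Set in order over the 5 groups, each of the 51 genes had its lowest mean in a treated group: CAL51 at 48 h for 23 genes and CALDOX at 24 h for 28. The highest mean was in untreated CAL51 for 40 genes, in untreated CALDOX for 8 and in CAL51 at 24 h for 3, UBE2C and CDK1 among them. For CDK1 this rests on the brightest probe set, since its other probe sets read below untreated CAL51 at 24 h, as given above. The median difference from untreated CAL51 over the 51 genes was -0.59, -0.67 and -0.56 on the 48 h arrays and -0.61, -0.60 and -0.63 on the treated CALDOX arrays, which overlap. It was -0.24, -0.33 and -0.18 on the CAL51 24 h arrays and -0.19, -0.07 and -0.16 on the untreated CALDOX arrays. The lowest of the 24 h arrays was replicate 2 and the highest replicate 3, the arrays with the narrowest and the widest interquartile range; its part in the result was not tested beyond the covariate fit above.

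The choice of probe set moved sizes more than calls. Of the 51 genes 24 have other probe sets, 41 in all, and none of these was called against the brightest one in any comparison. They were called lower in 12 cases at 24 h, 31 at 48 h, 23 between the times, 13 between the untreated lines (with 2 higher, both of BIRC5), and 21 in CALDOX at 24 h. In this fit over all probe sets, which adjusts over more features, 11 of the calls of the brightest probe sets were lost and none was gained. Among those lost were CDK1 at 48 h (limma adjusted p = 0.055), SPC24 between the untreated lines (0.056), and the difference of responses of NDC80 (0.052) and UBE2C (0.062).

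With the mean of a gene's probe sets in place of the brightest, all 51 log2 changes stayed below 0 at 48 h and 50 were called. Calls were lost in at least 1 comparison for 9 genes, and a called value moved by over 1.5 times for 12, each time towards 0. At 24 h in CAL51 the calls of CCNB2 (-0.09), CENPF (-0.04), KIF23 (-0.08) and AURKB (-0.17, limma adjusted p = 0.053) were lost. At 48 h CDC25C gave -0.38, CENPF -0.39, KIF23 -0.47, SPC24 -0.24 and BIRC5 -0.29, all still called. In CALDOX at 24 h CCNB2 (-0.04) and KIF23 (-0.17) lost their calls, and AURKB (-0.26), ASPM (-0.30), CDC25C (-0.36) and SPC24 (-0.26) kept theirs.

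Some of the 24 alternative fits left out an array of a group not compared. These keep the log2 change and alter only the estimated spread, so they try a call less than the others. Over all 24 alternative fits, 46 of the 51 calls at 48 h held in every fit, and the exceptions were CDK1, INCENP, MAD2L1, ECT2 and CCNB2. The same held for 12 of 26 calls at 24 h, 24 of 39 between the times, 14 of 22 between the untreated lines, 39 of 47 in CALDOX at 24 h and none of the 3 for the difference of responses. Besides KIF2C, the 24 h call in CAL51 was lost most often for NUF2 (14 fits), KIF23 (8), CCNA2 (5) and PLK1 (4). For SKA1 and BUB1 the call was lost in 3 fits each. Between the untreated lines it was lost in 15 fits for SPC24 and 4 for BIRC5.

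Other genes of the same machinery were counted from lists of pathway members. At 48 h in CAL51, where 11.2% of all genes were lower and 10.5% higher, 27 of 29 further kinetochore and centromere genes fell (median -0.47), led by MIS18A, which helps load CENPA (-0.79 ± 0.10), and CENPQ (-0.70 ± 0.15). The further kinesins fell in 5 of 7 (median -0.53), with KIF18B at -0.60 and KIFC1 at -0.57. Their list is not limited to mitotic motors, since KIF3A (0.07, the highest) and KIF5B are in it. The condensin and cohesin genes fell in 13 of 14 (median -0.56), with the condensin subunits NCAPG (-0.79 ± 0.09) and NCAPH (-0.77 ± 0.06) lowest. Of 15 further spindle and cytokinesis genes 12 fell (median -0.46), with ARHGAP11A at -0.84 and HAUS8 at -0.69.

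The list for the APC/C holds 10 subunits, the coactivator FZR1 and UBE2S, a ubiquitin-conjugating enzyme that extends the chains. Of these 12 genes 5 fell at 48 h and none rose (median -0.13, with 11.2% of all genes lower), with UBE2S at -0.38 and ANAPC10 at -0.35. In the DREAM and MYB-MuvB list 5 of 12 fell and 1 rose (median -0.18), where 11.2% of all genes were lower and 10.5% higher. LIN9, a subunit of the MuvB core, fell by 0.81 ± 0.08, RBL1, which encodes p107, by 0.78 ± 0.17, and TFDP2 rose by 0.29. The list of other CDK and cyclin regulators split, with 11 of 16 lower and 5 higher. CCNE2 fell by 1.04 ± 0.11 (limma adjusted p = 5.4e-06), whereas CCNG2 rose by 1.00 ± 0.13 (adjusted p = 4.7e-05), CCND1 by 0.66, CCNG1 by 0.52, CDC14B by 0.43 and CCNE1 by 0.38.

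The list of p53-linked genes that restrain G2 moved the opposite way to the 51 genes. At 48 h 7 of 8 rose (median 0.72) and none fell, where 10.5% of all genes rose, with RPRM not called. CDKN1A, which encodes p21, read 9.69, 9.61 and 9.64 in untreated CAL51, 11.71, 11.45 and 11.71 at 24 h, and 12.24, 12.13 and 12.19 at 48 h. It rose by 1.98 ± 0.07 and by 2.54 ± 0.07 (limma adjusted p = 6.6e-11 and 1.5e-12). GADD45A, which hinders CDK1 with cyclin B, rose by 1.04 ± 0.08 and by 1.22 ± 0.08. In untreated CALDOX 5 of the 8 were higher than in CAL51 and 2 lower, PLK2 (-1.10 ± 0.09) among the latter, where 14.2% of all genes were higher and 11.7% lower.

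CDKN1A read 10.93, 11.06 and 11.00 in untreated CALDOX, higher by 1.35 ± 0.07 than in CAL51 (limma adjusted p = 3.6e-10), and 12.14, 12.08 and 12.11 after treatment. Its own 24 h response in CALDOX (1.11 ± 0.07) was smaller than in CAL51, by 0.87 ± 0.10 (limma adjusted p = 0.00027). Of the 51 genes above, 47 had the more negative 24 h response in CALDOX, but the difference was called for only 3. None of these 3 calls held in every alternative fit. The doses differed between the lines, so line and dose cannot be told apart for CDKN1A or for the 51 genes. No test linked the level of CDKN1A to that of the G2 and mitosis genes.

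In CALDOX at 24 h the same lists gave 22 of 29 further kinetochore genes, 4 of 7 kinesins, 10 of 14 condensin and cohesin genes and 11 of 15 spindle genes lower, and none higher, where 5.5% of all genes were lower. Between the untreated lines, where 11.7% of all genes were lower and 14.2% higher, they gave 8 of 29, 2 of 7, 6 of 14 and 7 of 15 lower. Higher in CALDOX were 3 of the 29 kinetochore genes (NSL1, PMF1 and MAD1L1, by 0.28, 0.28 and 0.35), a share below that of all genes, and 1 of the 14 condensin and cohesin genes (SMC2, by 0.20). Within the APC/C list 4 of 12 genes were lower and 4 higher in CALDOX, with ANAPC11 higher by 0.58.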

How the data were processed

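RNA of 15 cultures (5 groups of 3, grouped by sample titles) was measured on 1-colour arrays. The deposited table holds 1 log2 value per probe set and array, processed by the authors with RMA per the submitters' processing notes; base 2 was inferred from the range, 3.083 to 14.762. RMA combines background correction, quantile normalization and a summary over probes, so a change shared by most genes would be removed, and fold changes tend to be compressed. Detection calls and scan batches were not used here. Of 54675 probe sets, 62 were controls, 41091 named 1 gene, 1801 several and 11721 none, by GEO's platform annotation. The brightest probe set per gene (mean over 15 arrays) gave 19775 genes.

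In R 4.3.3, limma 3.58.1 fitted 1 mean per group over all 15 arrays (10 residual degrees of freedom). The 6 contrasts were tested two-sided, with Benjamini-Hochberg adjustment over all genes. SE and 95% intervals come from this fit. It was also run on simulated data with independent noise for each gene, which cannot show how it behaves when the genes of an array shift together. The p-values measure the spread between cultures, and 3 arrays per group limit the precision. The members, subgroups and pathway lists were chosen with earlier results of these data known. Of 116 listed pathway genes 112 were tested, and CENPP, CIT, ANAPC1 and BTG2 were not analysed here. Values on every array are given for the members with the lowest and highest 48 h change in each subgroup, the 3 largest changes in each other comparison, and members called against the majority; pathway lists name the 2 largest 48 h changes and those called against the list. UBE2C was added because its difference of responses was called. Alternatives covered the arrays in the fit, array weights, normalization, centring, a filter on dim genes, the probe set, the variance model, a replicate block and leaving out each array. The replicate numbers were not used to pair samples in the main fit. Over 30 same-number pairs the correlation of deviations had a median of 0.002 (range -0.462 to 0.458). This median mixes pairs within and between the lines, so it cannot decide whether numbers pair cultures within a line. Same-number values were 0.06, 0.397 and 0.458 for CAL51 at 24 h with 48 h. For untreated CAL51 with 48 h they were -0.166, 0.191 and -0.292.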

Additional observations from a re-analysis of the deposited data

Results flagged for a closer look

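The 24 h response to doxorubicin differed between the lines for 3 of the 51 genes in the limma test of the difference itself. In CALDOX at 4 µM, relative to CAL51 at 0.4 µM, the log2 response was lower by 0.47 for AURKA (difference -0.47, adjusted p = 0.026), by 0.46 for NDC80 (-0.46, adjusted p = 0.039) and by 0.36 for UBE2C (-0.36, adjusted p = 0.041). Line and dose cannot be told apart in this design. Over the alternatives the difference stayed below 0 for all 3 genes, with adjusted p from 0.0011 to 0.08 for AURKA, from 0.0034 to 0.12 for NDC80 and from 0.0042 to 0.12 for UBE2C. The call was lost in 10 of 24 alternatives for AURKA, 11 for NDC80 and 15 for UBE2C.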

How the results depend on the processing

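Each called gene of the 51 kept its direction in each alternative in which it was called, and calls were lost rather than reversed. At 24 h in CAL51, the fit of only the arrays compared called 14 members lower, and over all genes 270 lower and 600 higher; array weights gave 1558 genes lower, and the interquartile range as a covariate 1692. From 24 h to 48 h that smaller fit called 24 members lower, with 302 genes lower and 263 higher, and the covariate gave 1582 higher. It estimates the spread from 4 residual degrees of freedom instead of 10. For CALDOX at 24 h, array weights, whose estimation stopped before full convergence, gave 2875 genes lower and 2086 higher. Between the untreated lines, median centring left 1 member higher. For the difference of responses, members called lower numbered 15 with array weights, 0 with median centring, 8 among the brighter genes, 7 with the trended robust variance and 5 with the covariate. The same fits gave 703 (weights), 313 (brighter genes), 296 (trend) and 278 (covariate) genes lower over all genes, and 528, 187, 174 and 264 higher, with 182 higher after a further quantile normalization.

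Leaving out 1 array gave 19 to 30 members lower at 24 h, 48 to 51 at 48 h, 29 to 43 between the times, 14 to 20 lower and 1 to 3 higher between the lines, 41 to 48 in CALDOX at 24 h, and 0 to 5 for the difference of responses. Over all genes it gave 507 to 861 lower at 24 h (507 without CAL51 24 h replicate 1, 571 without CAL51 untreated replicate 1), 627 to 1128 lower from 24 h to 48 h, 672 to 1272 lower in CALDOX at 24 h, and 91 to 219 lower and 69 to 134 higher for the difference of responses. With the replicate number as a block, members lower were 24 at 24 h, 50 at 48 h and 36 between the times. They were 17 between the lines (2 higher), 46 in CALDOX and 2 for the difference. Whether the numbers pair the cultures was not settled, so no reading is given to these counts. The cause of these shifts was not tested.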
